A study of Mus musculus with 6 samples.

Results

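The lysosomal cathepsins examined here were Ctsa, Ctsb, Ctsd, Ctsf, Ctsh, Ctsl, Ctso, Ctss, Ctsw and Ctsz, 10 of the 36083 genes listed in the per-library table. They were chosen by name as lysosomal proteases, by a rule that uses no measured value though earlier results of these data were known, and the granule genes Ctsg and Ctsc were kept apart. RNA-seq was carried out on blast crisis chronic myeloid leukemia (bcCML) cells to ask what changes in leukemia that lacks syndecan-1, a heparan sulfate proteoglycan of the cell surface encoded by Sdc1. There were 3 libraries from leukemia of WT donor cells and 3 libraries from leukemia of Sdc1-/- donor cells.

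In both groups the donors were on the B6 background, and KLS cells, a stem and progenitor fraction of the bone marrow, were sorted and given the oncogenes BCR-ABL and NUP98-HOXA9 by retroviral infection. Cells carrying both oncogenes were sorted and, by the labels, transplanted into NSG mice, which lack T, B and NK cells of their own but keep their own myeloid cells. The general methods of the study name irradiated CD45.1 mice, which have all of these cells, as hosts of primary bcCML, so that the host is not settled. All animals of both cohorts were taken at the same time, and the Lin- fraction of the spleen was sorted. The supplement of the study gives the gates for this sort as live cells, then cells marked by both oncogene vectors, then Lin- cells. The labels give neither age nor sex and no treatment other than these. The labels do not say whether each library is a mouse of its own, and the study describes its replicates of RNA-seq in Lin- WT bcCML as technical. The SD and the p-values given with n = 3 therefore measure the spread between libraries, and may not hold the spread between mice. The labels pointed to no batch.

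Cathepsins are proteases that are made as inactive precursors, carried to endosomes and lysosomes by sorting receptors, and activated there as the pH falls. Most are cysteine proteases of the papain family, while Ctsd is an aspartic protease and Ctsa a serine carboxypeptidase. Myeloid cells are rich in them, and in antigen-presenting cells they also prepare peptides and the invariant chain for MHC class II. Cystatins and stefins bind and block the cysteine members.

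The active site shows how the family divides. The coding windows around the catalytic residue are printed from GENCODE M21 on GRCm38 (mm10), with the codon of that residue in capitals, because the class of each enzyme rests on it. Each window has 30 bases, 5' to 3'. The 7 cysteine members shown carry a cysteine codon, TGC or TGT, directly before a tgg tryptophan codon.
Ctsb: tcctgcggctctTGTtgggcatttggggca
Ctsl: cagtgcgggtctTGTtgggcgtttagcgca
Ctss: tcttgtggtgccTGCtgggctttcagtgct
Ctsh: gcctgtggcagcTGCtggactttctctacc
Ctsz: tactgtggttccTGCtgggcccacggcagc
Ctso: atgtgtggaggaTGCtgggccttcagcgtg
Ctsw: agctgcaaatgcTGCtgggccatggcagct
The aspartic member carries an aspartate codon and the carboxypeptidase a serine codon.
Ctsd: acagtcgtctttGATactggctcctctaac
Ctsa: ctgacaggagagAGCtatgctggcatctac
Among these 7 cysteine windows, Ctsb and Ctsl were most alike, with 23 of 30 identical bases, and Ctsh and Ctsl least alike, with 13 of 30. Words of 31 bases were compared across all annotated transcripts, and the 10 members shared 0 words with each other.

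The members lay on 7 chromosomes and none on X or Y. Ctsd covered chr7:142375911-142388038 on the minus strand, and the transcript used here had 9 exons. Ctsz lay at chr2:174427493-174439039 on the minus strand and Ctsa at chr2:164832873-164841032 on the plus strand. Ctsb occupied chr14:63122462-63145923 and Ctsh chr9:90054152-90076089, both on the plus strand. Ctsl was on the minus strand at chr13:64359337-64370890. Ctss at chr3:95526786-95556403 and Ctso at chr3:81932601-81956725 were both on the plus strand. Ctsf at chr19:4855130-4860918 was on the plus strand and Ctsw at chr19:5465043-5468507 on the minus strand.

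Values are the deposited ones, TPM (a level per transcript length, relative to all transcripts of the library) rescaled between libraries by the authors, and levels of different genes are therefore set side by side. Differences were tested with limma on log2(value + 1) across the 12155 genes whose mean over all libraries was 1 or more, and a gene was called at a Benjamini-Hochberg adjusted p below 0.05. The log2 fold changes are Sdc1-/- minus WT on that scale, on which genes with low values change by less than their values do. The table keeps no read counts, so depth is unknown and no counting interval can be given. Libraries of 1 group correlated at 0.993 to 0.996 across genes on the log2 scale and libraries of different groups at 0.968 to 0.972, and none stood apart from its group.

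Sdc1 mRNA itself was higher in the libraries labelled Sdc1-/-. It stood at 1.75, 1.21 and 1.51 in WT and at 3.85, 3.80 and 4.12 in Sdc1-/- (log2 fold change 0.99, SE 0.093, limma with Benjamini-Hochberg adjusted p = 1.2e-04). A summed gene value does not show whether the transcript can be translated, and the allele is described as a change in the signal peptide sequence. The groups are therefore named by their labels, and every direction below is that of the libraries labelled Sdc1-/- against those labelled WT. The Y-linked genes Ddx3y, Eif2s3y, Kdm5d and Uty summed to 0.276 to 0.308 in WT and to 68.1 to 78.4 in Sdc1-/- libraries, so a difference in the sex of the donors or recipients cannot be told apart from genotype.

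Cathepsin mRNA was lower in Sdc1-/- bcCML. Of the 10 members, 9 fell and 1, Ctso, rose, whereas 31.3% of the 12155 genes tested were called lower, 29.3% higher and 60.7% either way. The largest falls on the log2(value + 1) scale were those of Ctss, Ctsl and Ctsh, which process the invariant chain, antigens and other proteins in endosomes. By value Ctsf, at 34.4% of WT, fell further than Ctsh (39.9%) and Ctsl (40.6%), and with a pseudocount of 0.1 its log2 fold change of -1.38 was also lower than theirs. Ctss, Ctsl and Ctsh were called and at least 2-fold lower with the pseudocount of 1, which was true of 2.92% of the genes tested. In 9 members every Sdc1-/- library lay below every WT library, against 34.2% of the genes tested. The median log2 fold change of the members was -0.65, and that of all genes tested was -0.0097. Ctsf passed the minimum through its WT values only, so that its place among the lower genes follows in part from that filter. In these bulk samples, fewer cells of a type and less RNA per cell cannot be told apart.

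**Figure D1:**
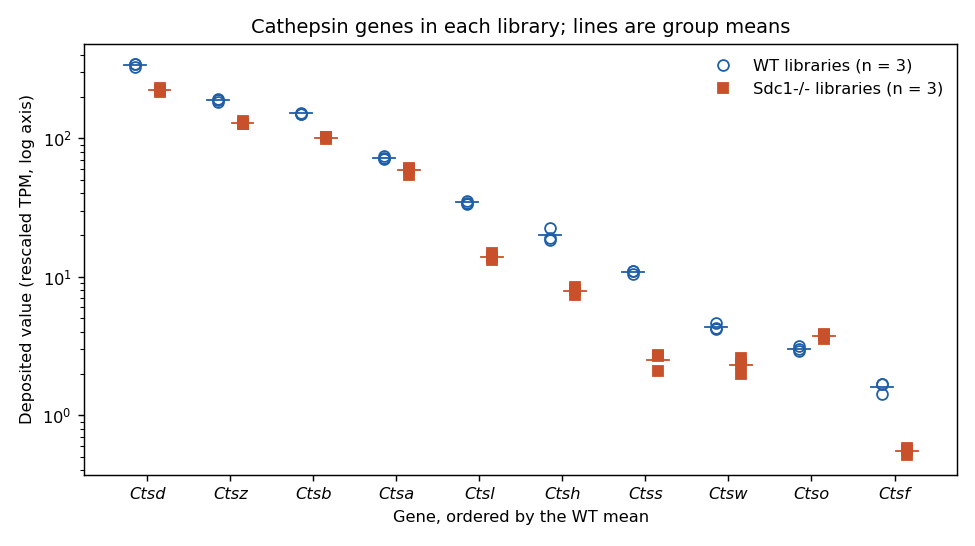
Deposited value (rescaled TPM, log axis) of each cathepsin gene in each library, with open circles for WT (n = 3), filled squares for Sdc1-/- (n = 3) and a line at each group mean. The levels span Ctsd (339.9 in WT) to Ctsf (0.549 in Sdc1-/-), the groups separate for every gene, and Ctso is the only gene whose Sdc1-/- libraries are the higher ones.

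The abundant housekeeping cathepsins came first. Ctsd, the major aspartic protease of lysosomes, had the highest level of the family, with values of 347, 330.4 and 342 in WT and 229.5, 225 and 216 in Sdc1-/-. All 3 Sdc1-/- libraries were low, and the group means were 339.9 ± 8.62 and 223 ± 6.90 (SD, n = 3 each). Ctsd fell to 65.8% of WT (log2 fold change -0.60, SE 0.035, 95% interval -0.69 to -0.52, limma with Benjamini-Hochberg adjusted p = 1.3e-05). Ctsz, also called cathepsin X, trims the last residue from the carboxyl end of proteins. It was listed at 193, 183 and 191 in WT and at 133, 128 and 127 in Sdc1-/- (log2 fold change -0.55, SE 0.034, limma adjusted p = 1.7e-05). Ctsb, an endopeptidase, stood at 153, 150.1 and 151 in WT and at 99.4, 102 and 102 in Sdc1-/- (log2 fold change -0.57, SE 0.028, limma adjusted p = 6.7e-06). These 3 genes were left at 65.8%, 68.3% and 67.0% of WT. The ratio of Ctsb to Ctsd was 0.445 ± 0.00799 in WT and 0.454 ± 0.0205 in Sdc1-/- (SD, n = 3), and the libraries overlapped (exact two-sided permutation test, p = 0.7). Ctsz over Ctsd was 0.556 ± 0.00142 in WT and 0.578 ± 0.0116 in Sdc1-/-, and here the libraries did not overlap (exact permutation p = 0.1).

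Ctsa, the carboxypeptidase that also protects beta-galactosidase and neuraminidase in the lysosome, fell less. Its values were 74.5, 70.8 and 71.8 in WT and 61.2, 60.5 and 54.4 in Sdc1-/-. The groups did not overlap, although the third Sdc1-/- library was lower than the other two. Ctsa was left at 81.1% of WT (log2 fold change -0.30, SE 0.051, 95% interval -0.42 to -0.18, limma adjusted p = 0.0020). The ratio of Ctsa to Ctsd rose from 0.213 ± 0.00276 to 0.262 ± 0.00938 (SD, n = 3) with no overlap (exact permutation p = 0.1, the smallest that 3 against 3 libraries allow). The same exact p of 0.1 held for each of the 10 genes.

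Among the members of intermediate level, the endosomal cysteine proteases Ctss, Ctsl and Ctsh fell further. Ctss, which completes the cleavage of the invariant chain and stays active at neutral pH, was at 10.45, 11.01 and 11.02 in WT and at 2.67, 2.71 and 2.09 in Sdc1-/-. The WT libraries lay within a narrow band and every Sdc1-/- library was far below it. Ctss fell 4.35-fold, to 23.0% of WT (log2 fold change -1.77, SE 0.081, 95% interval -1.96 to -1.57, limma adjusted p = 5.2e-06), and only 0.370% of the genes tested had a log2 fold change as low. Ctsl, a strong endopeptidase with broad targets, had values of 33.8, 33.9 and 35.5 in WT and 14.8, 13.3 and 13.9 in Sdc1-/-. It fell to 40.6% of WT (log2 fold change -1.24, SE 0.047, 95% interval -1.35 to -1.13, limma adjusted p = 2.7e-06). Ctsh, an aminopeptidase, was at 18.3, 22.4 and 19.1 in WT and at 8.41, 8.004 and 7.43 in Sdc1-/-. The second WT library was the highest of the 6, and the groups stayed apart. Ctsh fell to 39.9% of WT (log2 fold change -1.22, SE 0.081, 95% interval -1.41 to -1.03, limma adjusted p = 2.4e-05).

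Within each library these 3 genes also fell relative to the housekeeping members. Ctss over Ctsd went from 0.0319 ± 0.00163 in WT to 0.0111 ± 0.00125 in Sdc1-/- (SD, n = 3). Ctsl over Ctsb went from 0.228 ± 0.00709 to 0.138 ± 0.00935, and Ctsh over Ctsb from 0.132 ± 0.0153 to 0.0785 ± 0.00604. A ratio within a library is not changed by a single factor per library, and in all 3 ratios the groups did not overlap (exact permutation p = 0.1 each). Ctss took 1.31% of the summed cathepsin level in WT and 0.458% in Sdc1-/-, while the share of Ctsd was 41.1% in both groups.

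The least abundant members did not move together. Ctsw, known mainly from cytotoxic lymphocytes, was at 4.64, 4.202 and 4.27 in WT and at 2.40, 2.58 and 1.98 in Sdc1-/- (log2 fold change -0.70, SE 0.084, limma adjusted p = 3.9e-04). Ctsf, whose precursor carries a domain like that of cystatins, was at 1.69, 1.43 and 1.67 in WT and at 0.557, 0.514 and 0.576 in Sdc1-/- (log2 fold change -0.74, SE 0.081, limma adjusted p = 2.3e-04). Its value fell to 34.4% of WT, and the fold change grew to -1.38 with a pseudocount of 0.1. Ctso, a widely expressed and little studied member, was at 2.90, 3.005 and 3.17 in WT and at 3.77, 3.55 and 3.85 in Sdc1-/-. It rose to 123% of WT (log2 fold change 0.23, SE 0.060, 95% interval 0.088 to 0.37, limma adjusted p = 0.0135). The ratio of Ctso to Ctsa was 0.0418 ± 0.00272 in WT and 0.0637 ± 0.00637 in Sdc1-/- (SD, n = 3, exact permutation p = 0.1, no overlap).

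**Figure D2:**
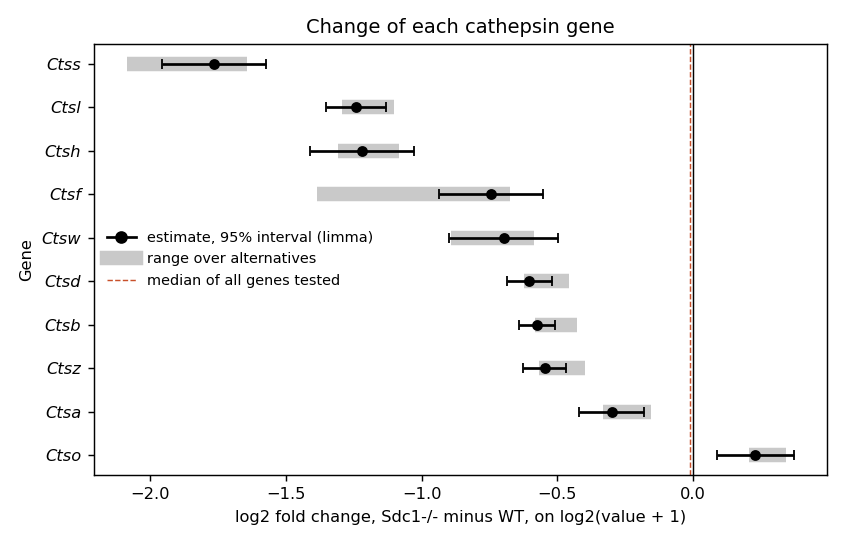
Log2 fold change of each cathepsin gene, Sdc1-/- minus WT on log2(value + 1), with points for the limma estimate, bars for its 95% interval and grey bands for the range over the processing alternatives. Of the 10 intervals, 9 lie below 0 and that of Ctso lies above it, and the dashed line marks the median of all genes tested (-0.0097).

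The order of the levels was nearly the same in both groups. In WT it ran Ctsd, Ctsz, Ctsb, Ctsa, Ctsl, Ctsh, Ctss, Ctsw, Ctso and Ctsf, and no pair of neighbours had overlapping library ranges. In Sdc1-/- the first 6 kept their places, and Ctso stood above Ctss and Ctsw. Ctss (2.09 to 2.71) and Ctsw (1.98 to 2.58) then overlapped and could not be ordered. The summed level of the 10 genes was 839.6, 811 and 831 in WT and 555, 546 and 530.0 in Sdc1-/-, or 827 ± 14.9 against 544 ± 12.9 (SD, n = 3 each). As deposited, the family as a whole was thus left at 65.8% of its WT level. Ctsd, Ctsz and Ctsb made up most of that level in both groups.

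The scale of the libraries bore on every percentage of WT, and mattered most for the small changes. The deposited values summed to 1048875 to 1058263 per library in WT and to 944973 to 951814 in Sdc1-/-. The mean sum in Sdc1-/- was 90.2% of that in WT. Once each library was scaled to sum to 1000000, the median over all genes tested moved to 0.12 on the log2 scale, and 2380 of the 7666 called genes were lower and 5286 higher, against 3810 and 3564 of 7374 with the values as deposited. Under that scaling 9 members were again called lower and Ctso higher, and Ctsa fell by 0.15 on the log2 scale.

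Some members overlap other genes, which limits how far their values belong to them. Of the 31-base words of Ctsd transcripts, 33.2% also occur in Gm49369, a gene model on the same strand with a mean of 3.79 in WT and 1.98 in Sdc1-/-. For Ctsl, 28.2% of the words are shared, mostly with the antisense model Gm47123, which was not analysed here. Ctsa shares 14.6% of its words with other genes, chiefly Pltp and Neurl2 on the opposite strand, and Ctsb shares 13%, mostly with Fdft1, also on the opposite strand. Pltp was at 1.74 in WT and 0.600 in Sdc1-/-, and Fdft1 had a log2 fold change of 0.14 and was not called (limma adjusted p = 0.16). Ctsf, Ctss, Ctsw and Ctsz shared 0 words with any other gene. The libraries were stranded, and whether strand was used in the quantification is not given in the sources used here.

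Other cathepsins fell as well. Of 13 further cathepsin genes, 3 had a mean of at least 1, and 6 were listed at 0 in all libraries. Ctsc, which activates granule proteases, was at 95.8 ± 6.03 in WT and 52.9 ± 2.01 in Sdc1-/- (log2 fold change -0.84, limma adjusted p = 1.8e-05). Ctse, an endosomal aspartic protease, was at 67.6 ± 2.42 and 31.6 ± 0.258 (log2 fold change -1.08, limma adjusted p = 1.8e-06). Ctsg, a serine protease of neutrophil granules, was at 285 ± 7.42 and 182 ± 8.34 (log2 fold change -0.64, limma adjusted p = 2.1e-05). All 3 fell, and by amounts within the range of the 10 members. Ctsk, the collagenase of osteoclasts, did not exceed 0.052 in any library.

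The inhibitors fell with the enzymes. Of 13 listed cystatins and stefins, 11 were in the table and 9 were tested. All 9 were called lower, with a median log2 fold change of -0.74. With a sum of 1000000 per library, 8 were called lower (median -0.59). Cst3, cystatin C, which is secreted, was at 337 ± 17.9 in WT and 220.4 ± 6.66 in Sdc1-/- (log2 fold change -0.61, limma adjusted p = 4.2e-05). Cst7, cystatin F of the endolysosome, went from 251 ± 2.88 to 181 ± 6.53 (log2 fold change -0.47), and Cstb, a stefin of the cytosol, from 117 ± 5.92 to 79.8 ± 0.436 (log2 fold change -0.54). The stefin A genes, which are known from neutrophil precursors, held the rest of the list. Stfa2 fell from 189 ± 9.11 to 60.3 ± 3.72 (log2 fold change -1.64) and Stfa2l1 from 264 ± 9.13 to 102 ± 3.40 (log2 fold change -1.36). Stfa3, BC100530, Stfa1 and BC117090 had log2 fold changes of -0.93, -0.82, -0.74 and -0.32. Stefin A genes are near-identical copies, and the split of reads between them is uncertain.

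Summed over the list, cystatins and stefins stood at 2087 ± 48.1 in WT and 1179 ± 12.8 in Sdc1-/-, and the 8 cysteine members at 415 ± 4.603 and 262 ± 2.78 (SD, n = 3 each). The second sum leaves out Ctsc, at 95.8 in WT and 52.9 in Sdc1-/-. The ratio of the inhibitor sum to that of the 8 members was 5.03 ± 0.173 in WT and 4.51 ± 0.0960 in Sdc1-/- with no overlap (exact permutation p = 0.1). Both sums fell, to 56.5% and 63.1% of WT.

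Genes that mature and sort lysosomal enzymes went both ways. Of 14 genes, 3 rose, 7 fell and 4 were not called, with a median log2 fold change of -0.098, and with a sum of 1000000 per library the median turned to 0.046 with 5 called in each direction. Sort1, the sorting receptor sortilin, fell from 10.9 ± 0.298 to 3.72 ± 0.128 (log2 fold change -1.33, limma adjusted p = 2.5e-06). Grn, the precursor of granulins and a partner of Ctsd in the lysosome, fell from 85.8 to 51.2 (log2 fold change -0.73), and Psap, the precursor of the saposins, from 124 to 83.6 (log2 fold change -0.56). The adaptors Gga3 and Gga2, which load mannose 6-phosphate receptors into carriers, rose by 0.60 and 0.25. The receptors themselves, picked out after their values were seen, had log2 fold changes of 0.59 (Igf2r) and -0.12 (M6pr). Equal sums moved the median of all genes tested to 0.12, so the direction of the small M6pr change may depend on the scaling. Lgmn, the protease that cleaves single-chain cathepsins, fell from 2.05 to 1.42 (log2 fold change -0.33).

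Most other lysosomal hydrolases also fell. Of 40, 3 rose, 30 fell and 7 were not called (median log2 fold change -0.35). With a sum of 1000000 per library, 24 fell and 3 rose (median -0.21). Acp5, the tartrate-resistant acid phosphatase, fell from 73.4 to 28.2 (log2 fold change -1.35), Arsb, arylsulfatase B, from 74.8 to 32.5 (log2 fold change -1.18), and Ppt1, palmitoyl-protein thioesterase, from 97.0 to 52.1 (log2 fold change -0.89). Dpp7, a dipeptidyl peptidase, rose from 10.8 to 17.3 (log2 fold change 0.64), Idua, iduronidase, by 0.27, and Pla2g15, a lysosomal phospholipase, by 0.16.

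Of 20 membrane proteins of the lysosome, 4 rose, 11 fell and 5 were not called (median log2 fold change -0.18), and with a sum of 1000000 per library 8 fell and 5 rose (median -0.050). Cd68, a glycoprotein of macrophage and myeloid lysosomes, fell from 26.5 ± 1.80 to 9.23 ± 0.389 (log2 fold change -1.43), Tmem192 by 0.52 and Laptm5 by 0.51. The chloride transporter Clcn7 had a log2 fold change of 0.38, the cation channel Mcoln1 of 0.34 and Cln3 of 0.24. Among 17 subunits of the vacuolar proton pump, which acidifies the lysosome, 14 fell, 2 were not called and 1, Tcirg1, rose (log2 fold change 0.52, median of the list -0.25), and with equal sums 10 fell and 1 rose (median -0.10). Atp6v1e1, Atp6v1a and Atp6v1b2 fell by 0.62, 0.61 and 0.56 on the log2 scale.

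Of 17 tested regulators of lysosome genes, 10 fell, 3 rose and 4 were not called (median log2 fold change -0.17), and with a sum of 1000000 per library 7 fell and 5 rose (median -0.043). Among the transcription factors of the MiT family, which were picked out after their values were seen, Tfeb was at 2.92 ± 0.838 in WT and 2.48 ± 0.132 in Sdc1-/- and was not called (log2 fold change -0.15, 95% interval -0.49 to 0.19, limma adjusted p = 0.40). Tfe3 fell by 0.17, Mitf by 0.48 and Tfec by 1.08. Mitf passed the minimum through its WT values only, and a fall as small as that of Tfe3 may depend on the scaling. Zkscan3, a repressor of lysosome genes, rose from 13.1 to 20.1 (log2 fold change 0.58, limma adjusted p = 1.7e-05), and Lamtor2 and Lamtor3, subunits of the complex that recruits mTORC1 to lysosomes, rose by 0.20 and 0.18. Mtor, Lamtor4 and Lamtor1 fell by 0.51, 0.47 and 0.39.

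Most genes of MHC class II presentation, a process in which Ctss takes part, were lower too. Of 9 tested, 8 fell and 1 was not called (median log2 fold change -0.73). With a sum of 1000000 per library, 7 fell (median -0.59). Cd74, the invariant chain that Ctss cleaves, fell from 21.4 ± 1.11 to 10.6 ± 0.276 (log2 fold change -0.95, limma adjusted p = 8.7e-06). H2-DMb1, part of the peptide exchange factor, fell by 1.03 and H2-Aa, a class II chain, by 0.86. H2-Ab1, another class II chain, was the gene not called with the values as deposited. It was at 32.0 ± 2.23 in WT and 27.0 ± 3.15 in Sdc1-/-, with overlapping libraries (log2 fold change -0.24, limma adjusted p = 0.051).

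**Figure D3:**
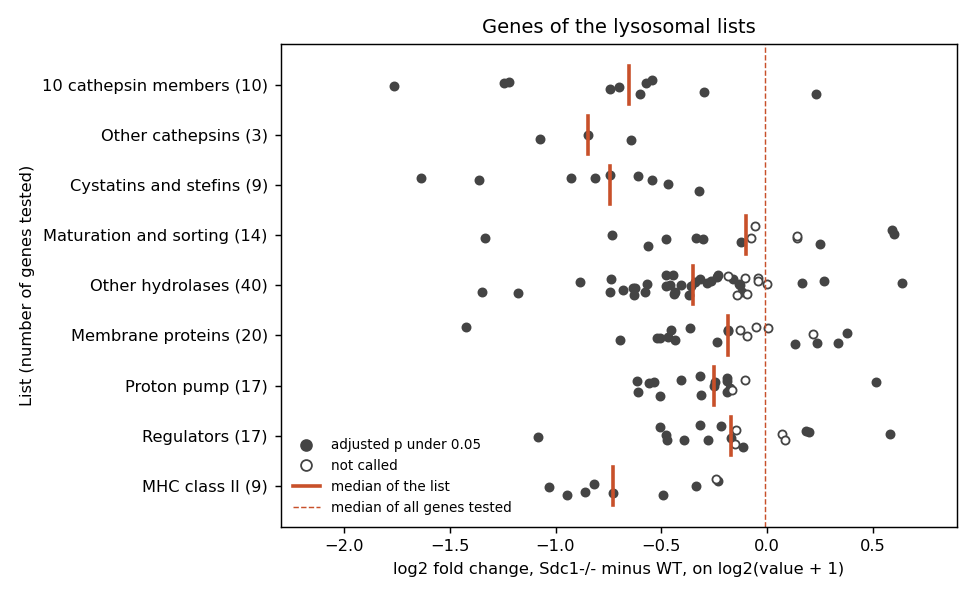
Log2 fold change of every tested gene of the lysosomal lists, Sdc1-/- minus WT on log2(value + 1), with filled points for genes called at an adjusted p below 0.05, open points for genes not called, a bar at each list median and a dashed line at the median of all genes tested. The cathepsins (median -0.65), cystatins and stefins (-0.74) and MHC class II genes (-0.73) lie further left than the regulators (-0.17) and the maturation and sorting genes (-0.098).

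The 8 lysosomal lists outside the 10 members also hold inhibitors, MHC class II genes, other cathepsins and regulators. In them 129 genes were tested, of which 92 were called lower, 14 higher and 23 neither (median log2 fold change -0.32). With a sum of 1000000 per library, 72 were lower and 19 higher, and the median was -0.17. Over all genes tested, 31.3% were called lower and 29.3% higher. Of 91 genes in the sorting, hydrolase, membrane and proton pump lists alone, 62 were called lower and 11 higher (median -0.26). The lists were compared by these counts and medians only.

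Several marker lists moved in the same direction. Of 9 tested macrophage and monocyte markers, 8 fell and 1 was not called, and the summed value of the 14 listed was 66.0 to 68.8 in WT and 26.7 to 29.9 in Sdc1-/-, or 39.9% to 44.6% of the WT mean. The defining markers Adgre1, Csf1r and C1qa were all above 0, at means of 21.0, 1.95 and 2.50 in WT and 9.55, 0.512 and 1.24 in Sdc1-/-. Among the 14, 5 had a mean under 1 and were not tested. Csf1r, C1qb, C1qc and Ly86 passed the minimum through their WT values only, so their calls follow in part from that filter. With a minimum mean of 5, 2 of these markers were tested, and 2 fell. Vcam1 was the marker not called, at 3.87 in WT and 3.80 in Sdc1-/- (limma adjusted p = 0.86). All 12 markers of maturing neutrophils fell, and their sum went from 13197 to 14131 down to 4743 to 4880. S100a8, S100a9 and Ngp, at means of 5279, 4031 and 2677 in WT, held most of that sum, while Camp fell only to 72.9% of WT. Of 8 erythroid markers, 6 fell and 2 rose, with sums of 9510 to 10215 and 5287 to 5690, and leaving out any library but the third WT library left 1 called higher. Nearly all of these sums came from the globin genes Hba-a1, Hba-a2, Hbb-bs and Hbb-bt, at means of 2432, 895, 2973 and 3410 in WT. The genes that rose were Klf1 and Epor (log2 fold changes 0.21 and 0.14). The sort removed lineage-positive cells with antibodies to surface markers of mature lineages, and genes of these lists were nonetheless detected.

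Dendritic cell markers summed to 2.66 to 3.25 in WT and 1.40 to 1.86 in Sdc1-/-, a low level in both groups. Of 12 T and NK cell genes, 5 were tested, of which 4 fell and 1 was not called. Their sum of 507 to 514 in WT and 393 to 407 in Sdc1-/- was nearly all Gzmb and Nkg7, while Cd3e, Cd8a and Ncr1 did not exceed 0.041 in any library. Klrb1c, which encodes the NK cell receptor NK1.1, had means of 7.03 in WT and 6.37 in Sdc1-/- and was not called, and Prf1, perforin, fell from 4.36 to 1.46 and Gzma, granzyme A, from 1.60 to 0.405. Gzma passed the minimum through its WT values only, so its call follows in part from that filter. Cd3d was at 0.565 and 0.698 and Klrd1 at 0.474 and 0.178. The part of T and NK cells in the fall of Ctsw was not tested. The 8 markers of leukemic or hematopoietic progenitors, the labelled cell type, were all detected, and 5 rose, 2 fell and 1 was not called, with sums of 425 to 447 and 482 to 489. Without the third WT library, or without the second Sdc1-/- library, 3 of them rose. Of 3 tested endothelial and stromal markers, 2 fell and 1 rose, with sums of 40.5 to 42.5 and 40.2 to 40.6. The falls of Ctss (to 23.0% of WT), Ctsh (39.9%) and Ctsl (40.6%) stood beside those of the macrophage and neutrophil sums, and the part of these markers in the cathepsin result was not tested.

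**Figure D4:**
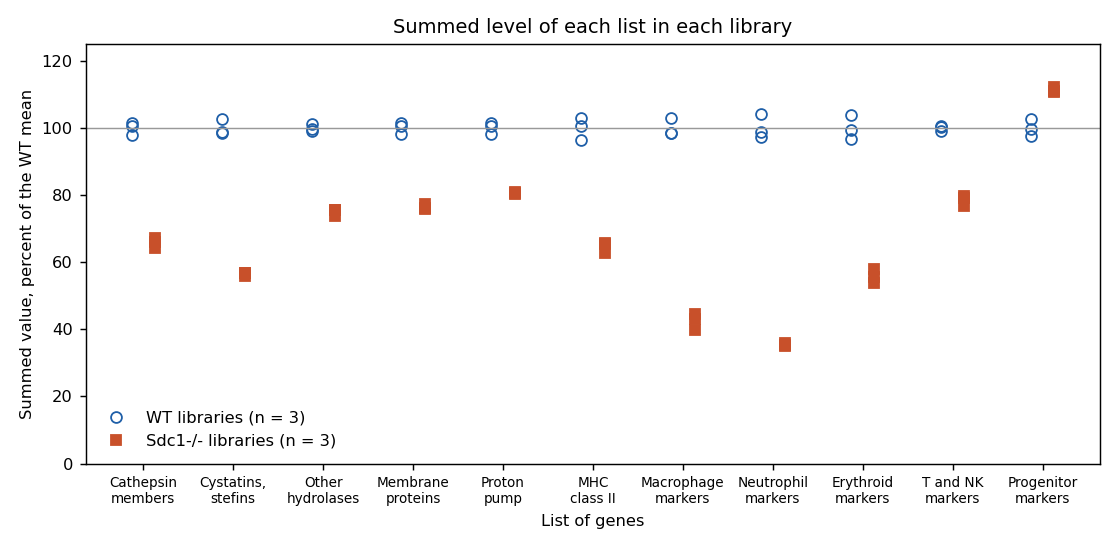
Summed deposited value of each list in each library as a percentage of the WT mean, with open circles for WT (n = 3) and filled squares for Sdc1-/- (n = 3). Cathepsins lie at 64.1% to 67.2% of WT in the Sdc1-/- libraries, neutrophil markers at 34.9% to 35.9%, macrophage markers at 39.9% to 44.6% and progenitor markers at 111% to 112%. The neutrophil, erythroid, macrophage and T and NK sums are weighted to a few abundant genes. All percentages rest on the values as deposited, whose mean library sum in Sdc1-/- was 90.2% of that in WT.

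The genes whose pattern over the 6 libraries was most like that of Ctss were Ltf, Wfdc21 and Dmkn. Likeness was the root mean square distance between centred log2(value + 1) profiles, searched over 12154 genes, and it was 0.044, 0.055 and 0.056. Ltf, lactotransferrin of neutrophil granules, was at 364 ± 5.43 in WT and 110.4 ± 7.18 in Sdc1-/-. Wfdc21 went from 145 to 43.4 and Dmkn from 19.9 to 4.88. With 2 groups, this measure mainly finds genes with a fall of similar size on the log2(value + 1) scale, so the match depends on the pseudocount. By value Ctss fell 4.35-fold, and Ltf, Wfdc21 and Dmkn fell 3.30-fold, 3.34-fold and 4.08-fold.

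Promoter sequences of RefSeq (GRCm38.p6, 250 bases before to 50 after each start) were at hand for 7 of the 10 members, and those of Ctsb, Ctsh and Ctsw were not. They are shown because lysosomal genes are known to share an E-box bound by TFEB and its relatives. The motifs were chosen after the values of the members were seen, and both strands were searched. The extended E-box TCACGTGA, which contains the shorter E-box CACGTG, was found in the promoters of Ctsa and Ctsd, and is in capitals here.
Ctsa, chr2:164833749-164833778: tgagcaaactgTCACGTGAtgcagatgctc
Ctsd, chr7:142387908-142387937, minus strand: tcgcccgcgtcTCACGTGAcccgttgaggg
It starts 13 bases before the start site in the promoter of Ctsa and 99 bases before it in that of Ctsd. A further copy in Ctsa begins 4 bases after the start site (chr2:164833766-164833795), and Ctsd has a further shorter E-box that begins at -245 from the start site. The shorter E-box was also found in Ctsl and Ctsf.
Ctsl, chr13:64370740-64370767, minus strand: gcgttagaagcCACGTGctgatctaaat
Ctsf, chr19:4855075-4855102: accccgtggtcCACGTGcctcgcgtaaa
The extended form is held by 0.974% of all promoters of this length and the shorter form by 7.15%, and counted per gene among those tested the shares are 2.33% and 12.2%. Among 71 genes of the sorting, hydrolase, membrane and proton pump lists with a promoter sequence, 11 (15.5%) held the extended and 21 (29.6%) the shorter form.

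In Ctss the box GAGGAAGT, a site of the myeloid factor PU.1, was found on the opposite strand, where it reads ACTTCCTC, beginning 2 bases before the start site.
Ctss, chr3:95526773-95526802: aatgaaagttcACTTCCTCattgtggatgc
This box is held by 3.20% of all promoters, and none of the other 6 members with a sequence had it. The GC box GGGCGG was found in Ctsd, Ctsf, Ctso, Ctss and Ctsz, and in 35.7% of all promoters. Counted per gene, 38.2% of all genes and 68.7% of those tested held it. TGACTCA, the AP-1 site, was in 0 of the 7 members and in 5.20% of all promoters. The members with an E-box (Ctsa, Ctsd, Ctsf and Ctsl) had log2 fold changes of -0.30, -0.60, -0.74 and -1.24, and those without it (Ctso, Ctss and Ctsz) of 0.23, -1.77 and -0.55. A match of letters is a description and not a site in use.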

How the data were processed

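RNA-seq was measured in 6 libraries of Lin- bcCML cells, 3 labelled WT and 3 labelled Sdc1-/-. The values per library are a signal that the authors deposited: kallisto TPM, summarized per gene and rescaled between libraries. The submitters' processing notes name kallisto, sleuth 0.30.0 and mm10, and the version of kallisto is not given in the sources used here. A second table holds the authors' own comparison (p and q values, effect sizes and variances) and was not used. Depth per library is unknown. Identifiers were matched to symbols with GENCODE M21 for 35454 of the 36083 genes, and all 10 cathepsins were found.

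Genes were filtered at a mean of 1 over the 6 libraries, which left 12155, and log2(value + 1) was fitted in R 4.3.3 by limma 3.58.1 with no covariate besides group, a trend in the variance prior and Benjamini-Hochberg adjustment over all genes tested at 0.05. The study used sleuth's Wald test on kallisto estimates, which needs more than the table holds. The test had been planned for unscaled TPM and was not altered. On simulated data the fit was checked for recovery of known changes. Ratios and sums were compared by an exact two-sided permutation test over libraries. Alternatives changed the pseudocount (0.1 or 0.5), the minimum mean (none or 5), the scaling (a sum of 1000000, or quantile normalization), the variance trend and the replicate block, and left out each library. Sequences were read from GENCODE M21 transcripts and RefSeq promoters. The active-site window of 1 member is not reported here. Python 3.11.15, pandas 2.3.3, scipy 1.17.1 and matplotlib 3.10.9 were used for the rest.

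All members were named, with, of each lysosomal list, up to 3 called genes that rose most and up to 3 that fell most among those with a mean of 5 or more, every tested cystatin and further cathepsin, and the 3 genes most like the member with the largest change. Igf2r, M6pr, Lgmn and the MiT factors fall outside that rule. The members and lists were chosen with earlier results of these data known.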

Additional observations from a re-analysis of the deposited data

How the results depend on the processing

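Under every alternative that was run, each of the tested members kept its direction and its adjusted p below 0.05. The number of genes called went from 7374 to 7358 and 7367 with pseudocounts of 0.1 and 0.5, 8022 with no minimum mean, 5907 with a minimum of 5, 7666 with equal sums, 7228 with quantile normalization and 7256 without the variance trend, and to 6475 to 6962 when 1 library was left out. All 10 members were called whichever library was left out. With a minimum mean of 5, Ctsf, Ctso and Ctsw were not tested, and the other 7 were called lower. The adjusted p (limma) reached 0.0449 for Ctso and 0.0276 for Ctsa at most. The log2 fold change ran from -2.09 to -1.65 for Ctss, -0.33 to -0.15 for Ctsa, 0.21 to 0.35 for Ctso and -1.38 to -0.67 for Ctsf. In the lysosomal lists outside the 10 members, 91 to 110 genes were called, against 106 as reported.

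The replicate numbers 1 to 3 are shared by the groups, but deviations of libraries with the same number correlated at 0.15, -0.0083 and 0.019, so the numbers were not taken to pair them. A fit with the replicate block called 7624 genes (3653 higher, 3971 lower), all 10 members and 110 genes of the lysosomal lists. It changed no call of a member. The second WT library correlated best with the third Sdc1-/- library (0.14). Without read counts, the precision of the low genes (Ctsf, Ctso, Ctsw) rests on 3 libraries per group alone.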
